A study of Homo sapiens with 10 samples.

Results

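The genes described here make the machinery that folds proteins in the endoplasmic reticulum (ER), checks them and removes those that fail, together with the sensors of the unfolded protein response. They were chosen by gene symbol from a fixed list of 42, of which 40 were found among the 18480 genes of both deposited tables. TXNDC5 and PPIB were not analysed here. Cells of HEK-293, a human embryonic kidney line, received small interfering RNAs (siRNAs) at 10 nM with the lipid reagent RNAiMax. The 5 groups of 2 arrays each, labelled as biological replicates, were LINC00324 siRNA 1, LINC00324 siRNA 2, LOC400043 siRNA 1, LOC400043 siRNA 2 and a scramble siRNA, and all carried the same transfection. LINC00324 and LOC400043 are long noncoding RNAs, and the design asks what their silencing does to gene expression. Levels are log2 values from Affymetrix HuGene-1_0-st arrays, normalised by the authors in one table per long noncoding RNA. Both tables hold the same scramble arrays, so the comparisons for LINC00324 and for LOC400043 share their controls.

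Secreted and membrane proteins enter the ER through the SEC61 channel. Inside, the chaperone BiP (encoded by HSPA5), its J-domain partners, the lectin chaperones and the disulfide and proline isomerases fold them, and ER-associated degradation (ERAD) extracts molecules that stay misfolded. When unfolded protein builds up, the sensors IRE1 (ERN1), PERK (EIF2AK3) and ATF6 start the unfolded protein response. IRE1 splices the mRNA of XBP1, ATF6 is cut to release a transcription factor, and PERK phosphorylates eIF2 alpha, which lowers general translation and favours the translation of ATF4. Splicing of XBP1 and cleavage of ATF6 are not seen in a gene-level array value.

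The median log2 level of an array was 7.64 to 7.73 in the table for LINC00324 and 7.53 to 7.62 in that for LOC400043. All 40 genes had mean levels well above the dim limit of 5, from 7.04 to 13.04 and from 7.02 to 12.87, with FKBP9 the lowest in both tables. None of the 6 measured HEK-293 markers had a mean under 5 in either table. Fibroblast, blood, endothelial and liver markers had means under 5 in 2 of 5, 2 of 4, 1 of 3 and 1 of 3 cases. The LINC00324 probe set read 5.37 and 5.03 with its siRNA 1 and 5.24 and 5.60 with its siRNA 2, against 5.79 and 5.80 with scramble, and neither difference passed the test (adjusted p = 0.184 and 0.308 by limma). It also read 5.42 and 5.42 with LOC400043 siRNA 1 and 5.47 and 5.43 with LOC400043 siRNA 2, against 5.76 and 5.58 with scramble in that table. The endothelial markers VWF, CDH5 and PECAM1 had means of 5.72, 5.84 and 4.95 in the LINC00324 table. The LINC00324 probe set thus reads near the level of markers of another cell type, where silencing is hard to see. The level of LOC400043 was not analysed here, so no array value checks the silencing of that target.

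A gene was called where limma's p, adjusted over all 18480 genes of a contrast, lay under 0.05. LINC00324 siRNA 1 changed 2 of the 40 genes (5%, against 0.498% of all genes). Of these 1 was higher (0.216% of all genes) and 1 lower (0.281%). LINC00324 siRNA 2 changed 5 (12.5%, against 1.85% of all genes), 1 higher (0.503% of all genes) and 4 lower (1.34%). LOC400043 siRNA 1 changed 13 (32.5%, against 11.5% of all genes), 3 higher (4.05% of all genes) and 10 lower (7.46%). LOC400043 siRNA 2 changed 17 (42.5%, against 21.7% of all genes), 7 higher (7.9% of all genes) and 10 lower (13.8%). The list of genes was chosen with earlier results of these data known. The shares in all 4 contrasts lay above the background of all genes, and no test of that excess was made. That background includes genes dimmer than any of the 40, and none matched on level was used. At an unadjusted p under 0.05 by limma, 10, 15, 22 and 20 of the 40 genes passed in the order above. Of all 18480 genes, 2435, 2936, 5002 and 6240 passed. Median log2 fold changes over the 40 genes were -0.02, -0.12, -0.16 and -0.01 in that order, beside 0.02, 0.01, 0.03 and 0.01 over all genes. The medians near 0 have no settled sign: that of LOC400043 siRNA 2 was 0.06 with arrays centred on their medians, and that of LINC00324 siRNA 1 was 0.03 without its replicate 1. With LINC00324 siRNA 1, both siRNA arrays lay above both scramble arrays for 11 genes and below for 13, where all genes gave 17.8% above and 21.3% below. With LINC00324 siRNA 2 these were 6 above and 23 below (all genes 22.3% and 27.4%). With LOC400043 siRNA 1 they were 4 and 26 (all genes 28.2% and 26.8%), and with LOC400043 siRNA 2 they were 11 and 18 (all genes 26% and 30.9%).

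Only SEC61B was called with all 4 siRNAs, and FKBP10 was called with 3. A further 9 genes were called with 2 siRNAs and 12 with 1, while 17 were called with none. HERPUD1 and RCN2 were called in opposite directions by LOC400043 siRNA 1 and siRNA 2. Of the 30 calls with LOC400043 siRNAs, 8 held in all 11 other settings tried, those of SEC61B and FKBP10 with both siRNAs and of DERL2, DNAJB9, EDEM1 and P4HB with siRNA 2. The other 22 were each lost without 1 or both arrays of the siRNA concerned. All 7 calls with LINC00324 siRNAs were lost without either scramble array or either siRNA 2 array. The 17 genes without a call include many of the abundant lumenal proteins, among them HSPA5, HSP90B1, CALR, CANX, PDIA3, PDIA4 and PDIA6, and also the sensor genes ERN1 and EIF2AK3. Of these, CALR, PDIA3 and PDIA6 stayed between -0.15 and 0.10 (log2) in every contrast with scramble. RNA from whole cultures was measured, so fewer cells expressing a gene and less RNA per cell cannot be told apart.

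**Figure D1:**
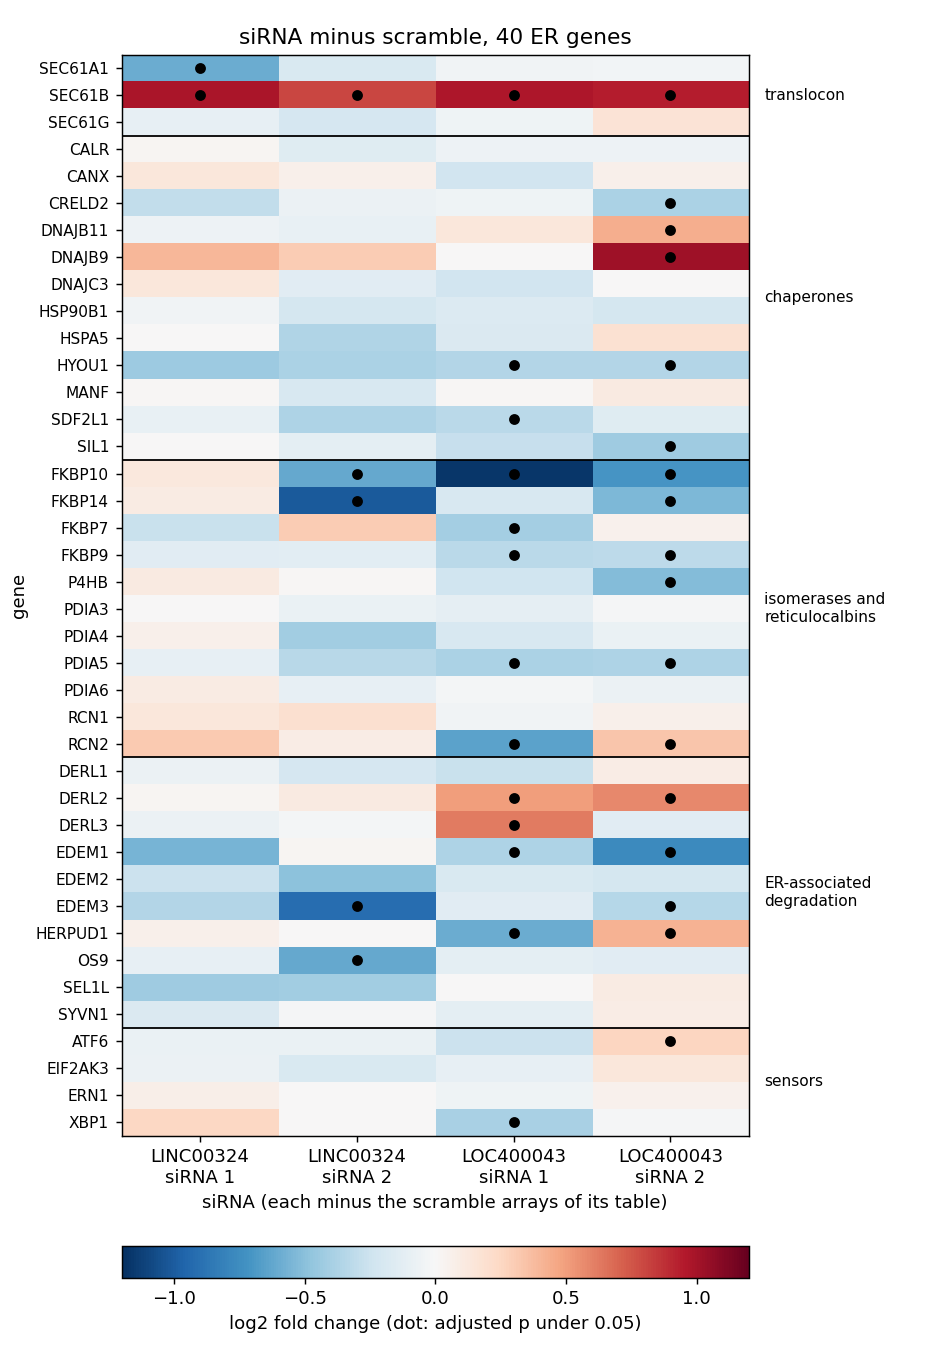
Log2 fold change against scramble of the 40 genes (rows, ordered by role) with each of the 4 siRNAs (columns), 2 arrays per group. Colour gives the fold change and a dot marks genes called at an adjusted p under 0.05; SEC61B carries a dot in all 4 columns, and HERPUD1 and RCN2 carry dots on opposite colours in the LOC400043 columns.

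SEC61B, which encodes the small beta subunit of the SEC61 channel, rose with every siRNA by 1.74-fold to 1.98-fold, while neither of the other subunit genes was called higher. In the tables' coordinates, for which no genome build is named, SEC61B lies on chromosome 9, plus strand, from 101984559 to 101992901, and is read by 13 probes. Its log2 level was 11.57 and 11.48 with LINC00324 siRNA 1 and 11.35 and 11.35 with LINC00324 siRNA 2, against 10.64 and 10.44 with scramble. In the LOC400043 table it was 11.55 and 11.40 with siRNA 1 and 11.50 and 11.38 with siRNA 2, against 10.59 and 10.41 with the same scramble cultures. All 8 siRNA arrays were therefore high and both scramble arrays low, without overlap. The log2 fold changes were 0.98 (SE 0.10, adjusted p = 0.0209 by limma) and 0.80 (SE 0.10, adjusted p = 0.0234) for LINC00324 siRNA 1 and siRNA 2. They were 0.97 (SE 0.09, adjusted p = 0.00293 by limma) and 0.94 (SE 0.09, adjusted p = 0.00141) for LOC400043 siRNA 1 and siRNA 2. The authors' deposited table gives SEC61B a difference of 0.89 for the mean of both LINC00324 siRNAs (unadjusted p = 6e-05) and 0.96 for LOC400043 (unadjusted p = 2e-05). Because one pair of scramble arrays serves all 4 contrasts, they are not independent readings of the control level. Of 18229 probe sets present in both tables, 16 were called higher and 2 lower with all 4 siRNAs. With either scramble array or either LINC00324 siRNA 2 array left out, the calls of SEC61B with the LINC00324 siRNAs were lost (adjusted p up to 0.163 and 0.271 by limma), at log2 fold changes from 0.88 to 1.08 and from 0.70 to 0.90 over all settings.

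SEC61A1, which encodes the alpha subunit that forms the channel itself, fell with LINC00324 siRNA 1. Its arrays read 10.76 and 10.84 with LINC00324 siRNA 1 and 11.27 and 11.18 with LINC00324 siRNA 2, against 11.42 and 11.39 with scramble. The siRNA 1 arrays stood apart from the other 4 arrays of that table. The fall with siRNA 1 was -0.60 on the log2 scale (SE 0.08, adjusted p = 0.0459 by limma), and the call was lost with any 1 of the 6 arrays left out and with a replicate block. With LOC400043 siRNA 1 and siRNA 2 it stood at -0.04 and -0.03. SEC61G, the gamma subunit gene, lay between -0.20 and 0.16 and was not called with any siRNA.

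**Figure D2:**
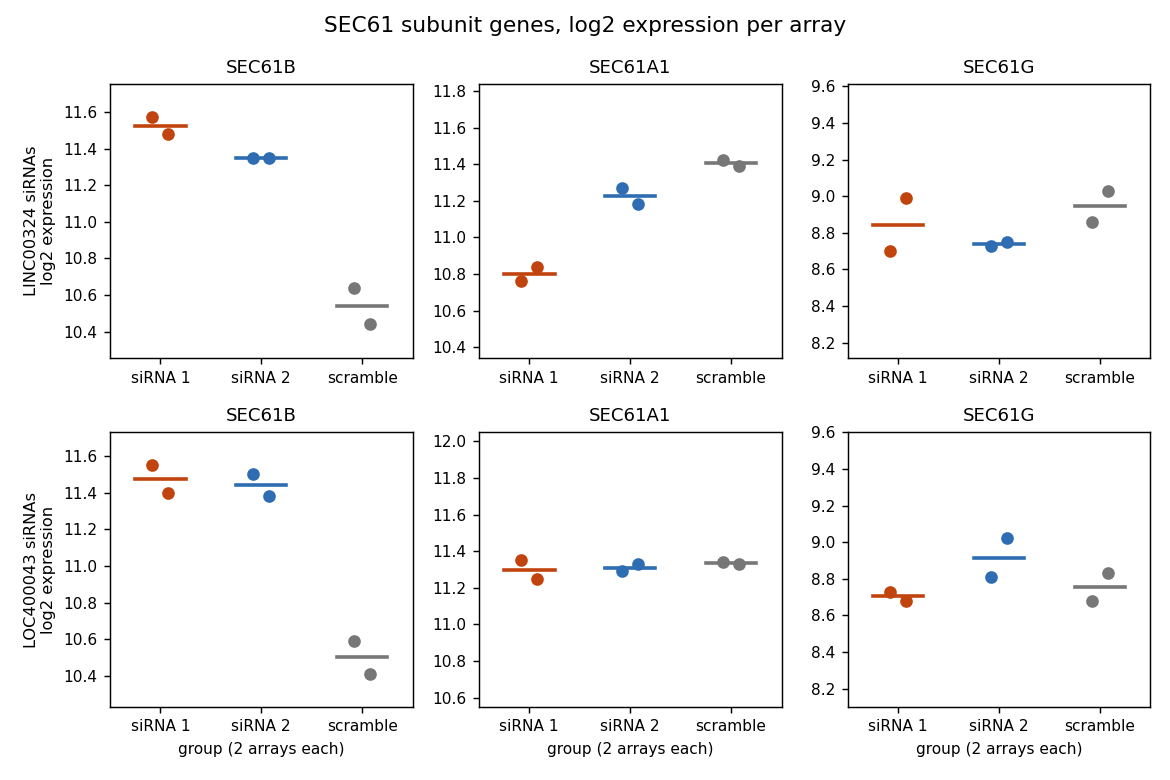
Log2 level of SEC61B, SEC61A1 and SEC61G on each array (points; bars are means of 2 arrays) with siRNA 1, siRNA 2 and scramble, for LINC00324 in the upper row and LOC400043 in the lower; panels differ in their range. SEC61B lies between 11.35 and 11.57 on all siRNA arrays and between 10.41 and 10.64 on the scramble arrays, and SEC61A1 was called lower with LINC00324 siRNA 1 alone.

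Among 12 chaperones and cofactors none was called by limma with either LINC00324 siRNA. At an unadjusted p under 0.05 there were 2 and 5, where 2435 and 2936 of all 18480 genes passed. The group's log2 fold changes ran from -0.44 to 0.40 with siRNA 1 and from -0.38 to 0.30 with siRNA 2. HYOU1, a large HSP70-family nucleotide exchange factor for BiP, came closest with siRNA 1. Its arrays read 9.69 and 9.75 with LINC00324 siRNA 1 and 9.80 and 9.77 with LINC00324 siRNA 2, against 10.15 and 10.17 with scramble. The 4 siRNA arrays lay below both scramble arrays, and the log2 fold changes were -0.44 (adjusted p = 0.0809 by limma) and -0.38 (adjusted p = 0.0668). HYOU1 fell with both LOC400043 siRNAs, by 0.35 (log2) each. Its arrays there read 9.79 and 9.72 with siRNA 1 and 9.72 and 9.79 with siRNA 2, against 10.09 and 10.12 with scramble, which gave adjusted p-values of 0.0226 and 0.0131 by limma. SDF2L1, a partner of the ER J-domain proteins, fell with LOC400043 siRNA 1 (-0.32, adjusted p = 0.0381 by limma). That call was lost with any 1 of the 6 arrays left out and with arrays centred on their medians.

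With LOC400043 siRNA 2, 2 of the 12 rose and 3 fell, where 7.9% of all genes rose and 13.8% fell, so the count alone sets the chaperones little apart. DNAJB9, which encodes the BiP cochaperone ERdj4, rose 2.03-fold. Its arrays read 8.69 and 8.86 with LOC400043 siRNA 2 and 7.69 and 7.82 with LOC400043 siRNA 1, against 7.56 and 7.96 with scramble. The siRNA 2 arrays were the high ones, and those of siRNA 1 lay within the spread of scramble. The log2 fold change with siRNA 2 was 1.02 (SE 0.14, adjusted p = 0.00344 by limma). In the LINC00324 table DNAJB9 stood at 0.40 with siRNA 1 and 0.30 with siRNA 2 and was not called. DNAJB11, which encodes the cochaperone ERdj3, rose with LOC400043 siRNA 2 by 0.44 (log2, SE 0.10, adjusted p = 0.0199 by limma). CRELD2, an ER stress-inducible lumenal factor, and SIL1, a nucleotide exchange factor of BiP, fell with the same siRNA by 0.38 (adjusted p = 0.0199) and 0.43 (adjusted p = 0.0101). The lectin chaperone genes CALR and CANX were not called, at -0.06 and 0.06 with LOC400043 siRNA 2.

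HSPA5, the BiP gene, is the classical readout of the unfolded protein response and was not called with any siRNA. Its arrays read 12.15 and 12.25 with LINC00324 siRNA 1 and 11.85 and 11.82 with LINC00324 siRNA 2, against 12.16 and 12.24 with scramble. With siRNA 2 it stood at -0.36 (log2 fold change, limma's adjusted p = 0.0898). In the other table HSPA5 read 11.94 and 11.98 with LOC400043 siRNA 1 and 12.31 and 12.31 with LOC400043 siRNA 2, against 12.08 and 12.17 with scramble. The siRNA 1 arrays lay below scramble and the siRNA 2 arrays above it, and neither passed the test, with siRNA 2 at 0.18 (adjusted p = 0.0983 by limma). Between the LOC400043 siRNAs HSPA5 did differ, at -0.35 for siRNA 1 minus siRNA 2 (adjusted p = 0.0139 by limma).

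Of the 11 isomerases and reticulocalbins, LINC00324 siRNA 1 changed none (limma, 1 at an unadjusted p under 0.05), LINC00324 siRNA 2 lowered 2, LOC400043 siRNA 1 lowered 5, and LOC400043 siRNA 2 lowered 5 and raised 1. Of all genes 1.34% fell with LINC00324 siRNA 2, 7.46% with LOC400043 siRNA 1 and 13.8% with LOC400043 siRNA 2, where 7.9% rose. FKBP10, which encodes FKBP65, a proline isomerase of the ER that acts on collagen, fell with 3 of the 4 siRNAs. It lies on chromosome 17, plus strand, from 39969201 to 39979469 in the tables' coordinates. In the LOC400043 table it read 9.67 and 9.61 with siRNA 1 and 10.08 and 10.13 with siRNA 2, against 10.81 and 10.82 with scramble. The 3 groups did not overlap, and siRNA 1 was the lowest, 2.26-fold below scramble. The log2 fold changes were -1.17 (SE 0.06, adjusted p = 0.000682 by limma) and -0.71 (SE 0.06, adjusted p = 0.00104). In the LINC00324 table FKBP10 read 10.96 and 11.04 with siRNA 1 and 10.30 and 10.22 with siRNA 2, against 10.87 and 10.88 with scramble. It fell with siRNA 2 by 0.61 (SE 0.08, adjusted p = 0.0258 by limma) and stood at 0.13 with siRNA 1. The authors' deposited table averages both siRNAs and gives FKBP10 a difference of -0.24 for LINC00324 (unadjusted p = 0.366) and -0.94 for LOC400043 (unadjusted p = 0.00083).

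FKBP14, another collagen-linked proline isomerase of the ER, gave the largest fall among the 40 genes with LINC00324 siRNA 2. Its arrays read 9.09 and 9.24 with LINC00324 siRNA 1 and 8.00 and 8.10 with LINC00324 siRNA 2, against 8.91 and 9.21 with scramble. The siRNA 2 arrays were low and the siRNA 1 arrays overlapped scramble. The log2 fold change with siRNA 2 was -1.01 (SE 0.12, adjusted p = 0.0234 by limma), or 2.02-fold. FKBP14 also fell with LOC400043 siRNA 2 (-0.54, SE 0.11, adjusted p = 0.0134 by limma). FKBP7 fell with LOC400043 siRNA 1 (-0.41, adjusted p = 0.0238), and FKBP9 with LOC400043 siRNA 1 (-0.32, adjusted p = 0.0423) and siRNA 2 (-0.31, adjusted p = 0.0299). FKBP9 was the dimmest of the 40 genes, and a near-identical pseudogene copy makes its signal uncertain. Its calls were lost with arrays centred on their medians and with any 1 array but scramble replicate 1 left out.

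Of the protein disulfide isomerase genes, PDIA5 and P4HB were called. PDIA5 fell with LOC400043 siRNA 1 (-0.38, adjusted p = 0.0355 by limma) and siRNA 2 (-0.37, adjusted p = 0.0245). P4HB, which encodes the founding disulfide isomerase PDI, fell with LOC400043 siRNA 2 (-0.52, SE 0.06, adjusted p = 0.00267) and stood at -0.24 with LOC400043 siRNA 1. It is read by a 46-probe set in the LINC00324 table and by a 12-probe set in the LOC400043 table, so its values in the tables come from different probes. The 46-probe set spans 79801037 to 79818410 on chromosome 17, and the 12-probe set only 79803020 to 79803107. The fall of P4HB therefore rests on a short stretch of the gene, and no LOC400043 value of the wider set is given here. PDIA4 stood at -0.42 with LINC00324 siRNA 2, which missed the threshold (limma's adjusted p = 0.0521). RCN2, which encodes the calcium-binding reticulocalbin 2, read 9.98 and 10.06 with LOC400043 siRNA 1 and 10.94 and 11.04 with LOC400043 siRNA 2, against 10.59 and 10.73 with scramble. The siRNA 1 arrays lay below scramble and the siRNA 2 arrays above it. It fell with siRNA 1 by 0.64 (SE 0.08, adjusted p = 0.00561 by limma) and rose with siRNA 2 by 0.33 (SE 0.08, adjusted p = 0.0283). The call of the fall was lost without either siRNA 1 array. That of the rise was lost without scramble replicate 1, either siRNA 1 array or either siRNA 2 array. The rise ran from 0.26 to 0.40 (log2) over all settings.

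Of 10 ERAD genes, LINC00324 siRNA 1 changed none by limma. At an unadjusted p under 0.05 there were 4, where 2435 of all 18480 genes passed. LINC00324 siRNA 2 lowered 2, where 1.34% of all genes fell. With LOC400043 siRNA 1 and with LOC400043 siRNA 2, 2 rose and 2 fell each time, where 4.05% of all genes rose and 7.46% fell with siRNA 1, and 7.9% rose and 13.8% fell with siRNA 2. EDEM3, one of the mannose-trimming proteins that mark misfolded glycoproteins for disposal, read 9.56 and 9.70 with LINC00324 siRNA 1 and 9.07 and 9.07 with LINC00324 siRNA 2, against 9.95 and 10.02 with scramble. All 4 siRNA arrays were below scramble and siRNA 2 was lowest. The log2 fold changes were -0.35 with siRNA 1, not called, and -0.91 with siRNA 2 (SE 0.08, adjusted p = 0.0148 by limma), or 1.88-fold. OS9, an ERAD lectin that reads the trimmed glycan, fell with siRNA 2 by 0.61 (SE 0.10, adjusted p = 0.0382 by limma). EDEM2, which starts the mannose trimming, stood at -0.49 (adjusted p = 0.0564), and SEL1L, the scaffold of the SYVN1 ubiquitin ligase, at -0.42 with siRNA 2 and -0.43 with siRNA 1, none of them called. The falls of EDEM3, FKBP10, FKBP14 and OS9 with LINC00324 siRNA 2 were all lost with either scramble array or either siRNA 2 array left out, with adjusted p-values up to 0.218, 0.33, 0.25 and 0.393 by limma.

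EDEM1, a stress-induced member of the EDEM family, fell with both LOC400043 siRNAs. Its arrays read 8.64 and 8.57 with LOC400043 siRNA 1 and 8.15 and 8.26 with LOC400043 siRNA 2, against 8.93 and 9.01 with scramble. The 3 groups did not overlap. The log2 fold changes were -0.37 (SE 0.07, adjusted p = 0.0257 by limma) and -0.76 (SE 0.07, adjusted p = 0.00131). In the LINC00324 table EDEM1 read 8.46 and 8.66 with siRNA 1 and 9.22 and 9.07 with siRNA 2, against 9.08 and 9.16 with scramble, so only siRNA 1 lay below (-0.56, adjusted p = 0.0961 by limma). EDEM3 fell with LOC400043 siRNA 2 by 0.34 (adjusted p = 0.0186 by limma).

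**Figure D3:**
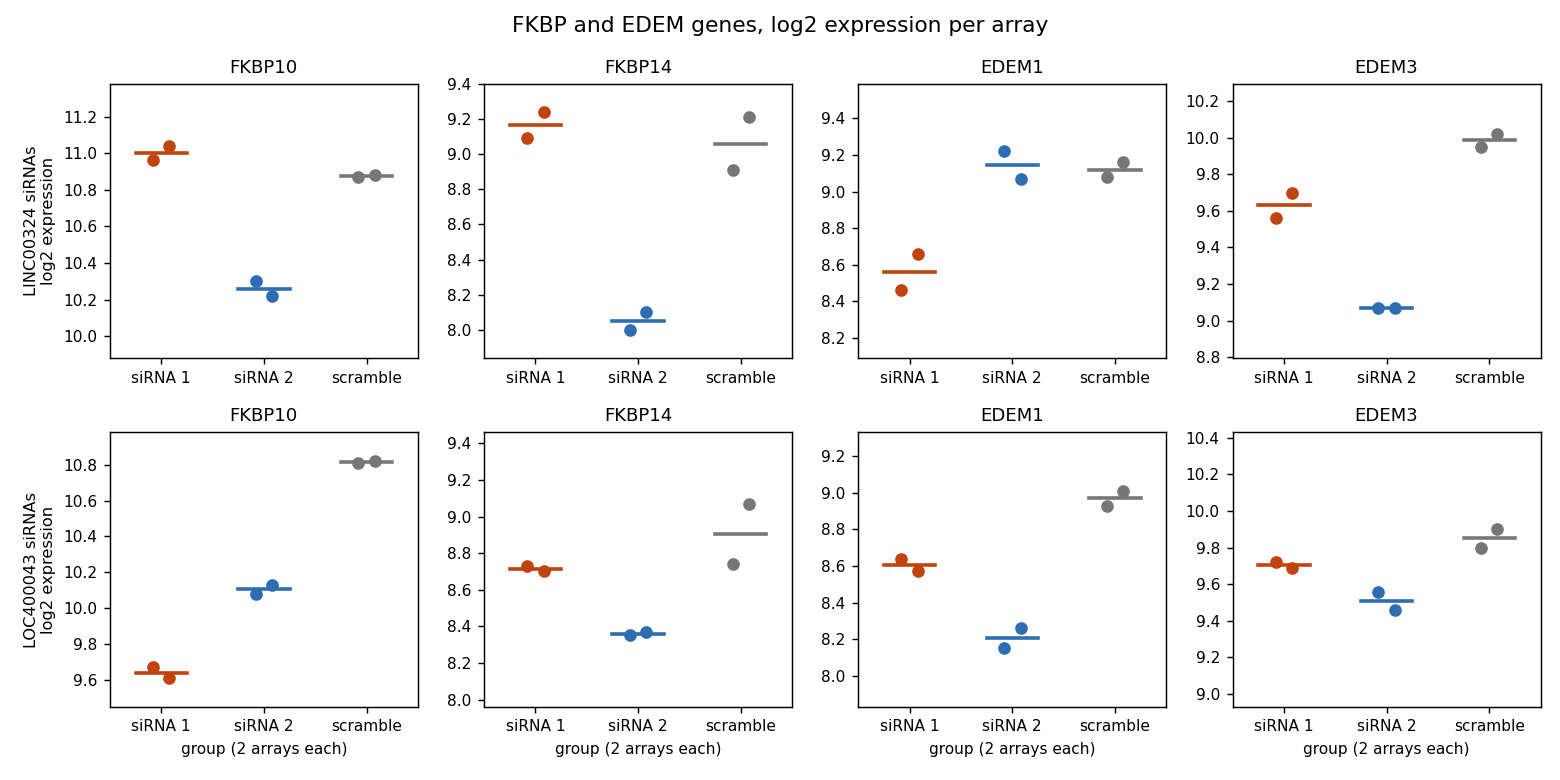
Log2 level of the proline isomerase genes FKBP10 and FKBP14 and of EDEM1 and EDEM3 on each array (points; bars are means of 2 arrays) with siRNA 1, siRNA 2 and scramble, for LINC00324 above and LOC400043 below; panels differ in their range. FKBP10 is low with LINC00324 siRNA 2 and both LOC400043 siRNAs, and EDEM1 is lowest with LOC400043 siRNA 2 at 8.15 and 8.26.

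Derlins help draw ERAD substrates back across the membrane. DERL2 rose with both LOC400043 siRNAs. Its arrays read 10.37 and 10.39 with siRNA 1 and 10.43 and 10.49 with siRNA 2, against 9.86 and 9.90 with scramble. All 4 siRNA arrays were higher, with log2 fold changes of 0.50 (SE 0.06, adjusted p = 0.00582 by limma) and 0.58 (SE 0.06, adjusted p = 0.00186). DERL3 was called with siRNA 1 and not with siRNA 2, reading 8.42 and 8.31 with LOC400043 siRNA 1 and 7.68 and 7.54 with LOC400043 siRNA 2, against 7.82 and 7.68 with scramble. DERL3 rose by 0.62 with siRNA 1 (log2, SE 0.09, adjusted p = 0.00795 by limma) and stood at -0.14 with siRNA 2, and the siRNAs differed by 0.76 (adjusted p = 0.00233). DERL1 was not called with any siRNA. With the LINC00324 siRNAs DERL1, DERL2 and DERL3 lay between -0.20 and 0.11.

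HERPUD1 encodes a stress-induced membrane protein that joins the SYVN1 ligase complex. It lies on chromosome 16, plus strand, from 56965748 to 56977793 in the tables' coordinates. Its arrays read 9.83 and 9.77 with LOC400043 siRNA 1 and 10.81 and 10.83 with LOC400043 siRNA 2, against 10.34 and 10.46 with scramble. Scramble lay between the siRNAs, with no overlap of the 3 groups. HERPUD1 fell with siRNA 1 by 0.60 (SE 0.07, adjusted p = 0.00466 by limma) and rose with siRNA 2 by 0.42 (SE 0.07, adjusted p = 0.00778). The siRNAs themselves differed by -1.02 (siRNA 1 minus siRNA 2, adjusted p = 0.000652 by limma). Among the 11 other settings its calls were lost only without LOC400043 siRNA 1 replicate 2 for siRNA 1 (adjusted p = 0.0599 by limma) and without either siRNA 2 array for siRNA 2 (adjusted p up to 0.0551). In the LINC00324 table HERPUD1 read 10.49 and 10.52 with siRNA 1 and 10.44 and 10.46 with siRNA 2, against 10.39 and 10.51 with scramble, and was not called.

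Of the sensors and transcription factors, ATF6 and XBP1 were called in single contrasts. ATF6 encodes the membrane-bound precursor of a transcription factor. It read 10.75 and 10.81 with LOC400043 siRNA 1 and 11.31 and 11.30 with LOC400043 siRNA 2, against 11.00 and 11.09 with scramble. The siRNA 1 arrays lay below scramble (-0.26, adjusted p = 0.0525 by limma) and the siRNA 2 arrays above it (0.26, SE 0.07, adjusted p = 0.035). The call with siRNA 2 was lost without scramble replicate 1, either siRNA 1 array or either siRNA 2 array. Over all settings the rise ran from 0.22 to 0.33 (log2). In the LINC00324 table ATF6 read 11.02 and 11.04 with siRNA 1 and 11.04 and 11.01 with siRNA 2, against 11.07 and 11.15 with scramble, and was not called.

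XBP1, whose mRNA IRE1 splices, read 10.73 and 10.72 with LOC400043 siRNA 1 and 11.14 and 11.08 with LOC400043 siRNA 2, against 11.09 and 11.15 with scramble. Only the siRNA 1 arrays stood apart, and XBP1 fell with that siRNA by 0.39 (SE 0.06, adjusted p = 0.0132 by limma). In the LINC00324 table it read 11.29 and 11.44 with siRNA 1 and 11.12 and 11.12 with siRNA 2, against 11.08 and 11.15 with scramble, with no call.

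Neither gene of the kinase sensors was called. ERN1 read 8.14 and 8.08 with LINC00324 siRNA 1 and 8.09 and 7.99 with LINC00324 siRNA 2, against 8.10 and 7.98 with scramble. In the LOC400043 table it read 8.03 and 8.03 with siRNA 1 and 8.17 and 8.09 with siRNA 2, against 8.10 and 8.05 with scramble. Its log2 fold changes lay between -0.05 and 0.07. EIF2AK3, the PERK gene, read 8.13 and 8.27 with LINC00324 siRNA 1 and 8.13 and 8.05 with LINC00324 siRNA 2, against 8.16 and 8.37 with scramble. With LOC400043 siRNA 1 it read 8.24 and 8.25 and with siRNA 2 it read 8.40 and 8.58, against 8.28 and 8.43 with scramble. Its log2 fold changes lay between -0.18 and 0.14.

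Both siRNAs against one target were then set against each other. Between LOC400043 siRNA 1 and siRNA 2, 14 of the 40 genes differed (35%, against 17.1% of all genes), 4 higher with siRNA 1 (9.63% of all genes) and 10 lower (7.5%). Without overlap of the arrays, 8 genes were higher with siRNA 1 and 23 lower, where all genes gave 33.7% and 25.6%. The widest gaps were those of HERPUD1 and DNAJB9 (both -1.02, adjusted p = 0.000652 and 0.00417 by limma), RCN2 (-0.97, adjusted p = 0.000966), DERL3 (0.76) and ATF6 (-0.53, adjusted p = 0.00362). Each of these 5 differences kept its call under all 11 other settings. With arrays centred on their medians, 2 genes were called higher and 10 lower. Between LINC00324 siRNA 1 and siRNA 2, 7 genes differed (17.5%, against 3.07% of all genes), 5 higher with siRNA 1 (2.28% of all genes) and 2 lower (0.785%). Without overlap of the arrays, 24 genes were higher with siRNA 1 and 6 lower, where all genes gave 24.3% and 21.3%. With arrays centred on their medians 4 genes were called higher and 3 lower. FKBP14 differed by 1.12 (adjusted p = 0.0174 by limma), FKBP10 by 0.74 (adjusted p = 0.017) and EDEM3 by 0.56 (adjusted p = 0.03), all higher with siRNA 1, while EDEM1 differed by -0.59 (adjusted p = 0.0426). LINC00324 siRNA 1 had the widest replicate differences of all groups, with an SD over genes of 0.24 against 0.13 for LINC00324 siRNA 2. Its part in these values was not tested.

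**Figure D4:**
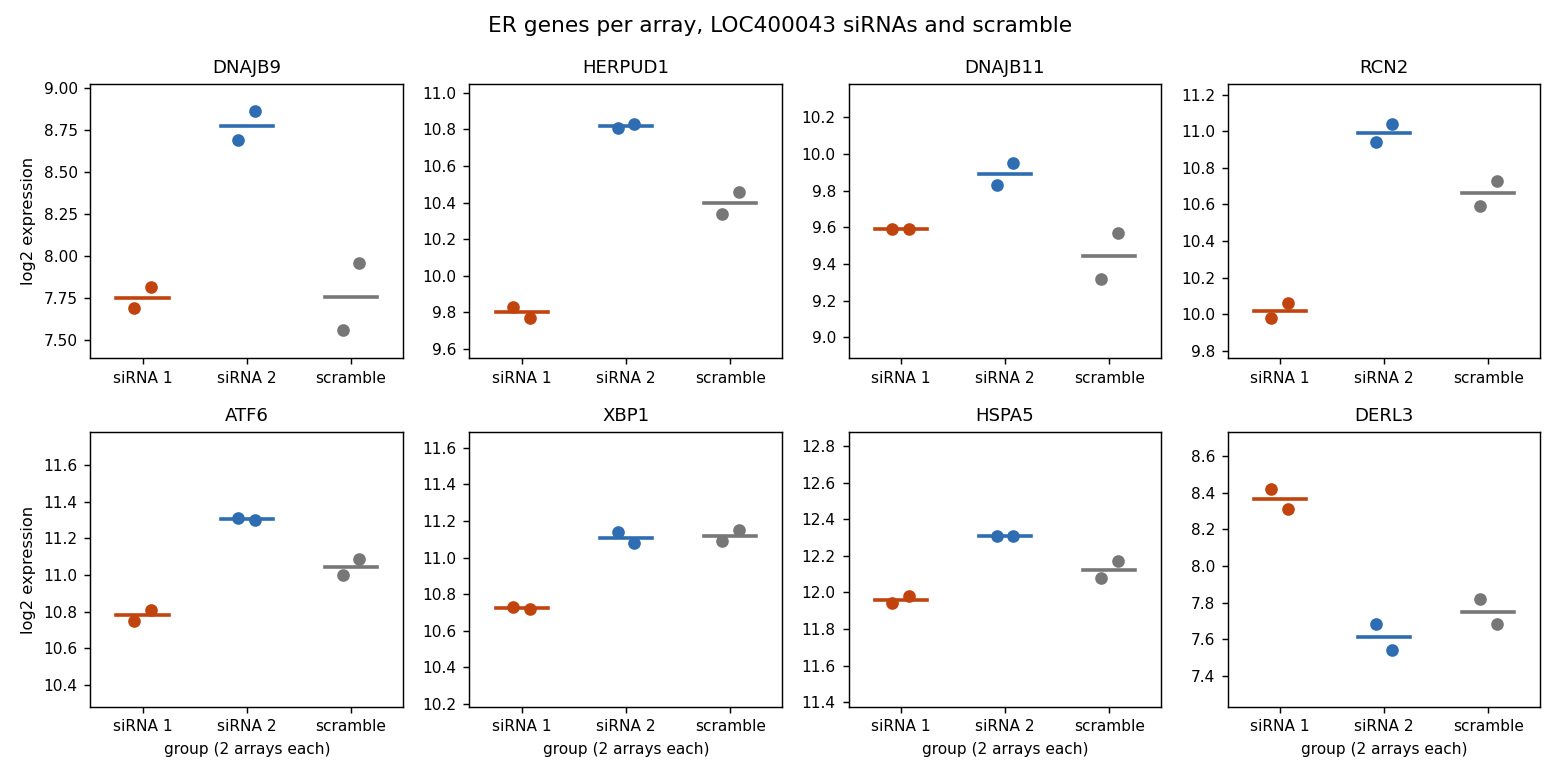
Log2 level on each array (points; bars are means of 2 arrays) of 8 genes, of which all but DNAJB11 differed between the LOC400043 siRNAs, with siRNA 1, siRNA 2 and scramble; panels differ in their range. HERPUD1 and RCN2 lie below scramble with siRNA 1 and above it with siRNA 2, while DNAJB9 is high only with siRNA 2.

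Stress-responsive promoters of this family are known for the ER stress element (ERSE), bound by ATF6 with NF-Y, for ERSE-II, for the unfolded protein response element (UPRE) bound by XBP1, and for the C/EBP-ATF response element (CARE) bound by ATF4. RefSeq promoter windows (GRCh38.p14, 250 bases before and 50 after the transcription start) were matched for 35 of the 40 genes. Both strands were searched for CCAAT followed after any 9 bases by CCACG (ERSE), for ATTGG followed after any 1 base by CCACG (ERSE-II), for TGACGTGG (UPRE) and for TGATGNAA (CARE). ERSE letters were found in 7 genes, CALR, CANX, CRELD2, HSP90B1, HSPA5, PDIA6 and XBP1, or 20% against 0.0916% of all 27305 genes with a window. ERSE-II letters were found in HERPUD1, HYOU1 and SDF2L1, or 8.57% against 0.0696%. UPRE letters were found only in HYOU1, where they overlap an ERSE-II match, and CARE letters only in HERPUD1, or 2.86% each against 0.927% and 4.46% of all genes. Because promoters of this family are already known for these elements, the shares describe the list and test nothing. A match is a description of letters and not a binding site. With LOC400043 siRNA 2, the 7 genes with ERSE letters held 0 higher and 1 lower call (median log2 fold change -0.06), and the 28 without held 7 higher and 7 lower (median 0.05), where 7.9% of all genes rose and 13.8% fell. With LOC400043 siRNA 1 the counts were 0 higher and 1 lower against 2 higher and 8 lower, with a median of -0.16 on both sides, where 4.05% of all genes rose and 7.46% fell. With 7 genes carrying ERSE letters, calls this few are near the share of all genes.

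The windows of 4 genes are printed because their levels differ in pattern: HERPUD1 and DNAJB9 rose with LOC400043 siRNA 2, SEC61B rose with all 4 siRNAs, and HSPA5 was not called. They span chr16:56931892-56932191 (plus strand) for HERPUD1, chr7:108569624-108569923 (plus) for DNAJB9, chr9:99222032-99222331 (plus) for SEC61B and chr9:125241294-125241593 (minus) for HSPA5. Capitals mark motif letters, which are CARE from -176 to -169 (on the opposite strand) and ERSE-II from -117 to -107 in HERPUD1, and ERSE from -66 to -48 in HSPA5, counted from the transcription start. DNAJB9 and SEC61B hold none of the 4 motifs in these windows.
HERPUD1: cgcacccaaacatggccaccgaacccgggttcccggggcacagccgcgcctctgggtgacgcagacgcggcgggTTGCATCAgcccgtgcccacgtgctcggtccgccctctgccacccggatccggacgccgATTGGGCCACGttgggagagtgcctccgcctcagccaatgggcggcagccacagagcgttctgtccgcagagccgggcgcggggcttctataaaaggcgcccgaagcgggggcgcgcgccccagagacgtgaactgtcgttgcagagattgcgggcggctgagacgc
DNAJB9: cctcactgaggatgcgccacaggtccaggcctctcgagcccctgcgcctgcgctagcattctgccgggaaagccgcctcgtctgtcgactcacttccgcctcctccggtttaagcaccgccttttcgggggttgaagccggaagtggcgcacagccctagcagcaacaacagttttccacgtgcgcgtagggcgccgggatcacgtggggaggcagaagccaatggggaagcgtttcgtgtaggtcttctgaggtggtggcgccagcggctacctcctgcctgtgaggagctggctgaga
SEC61B: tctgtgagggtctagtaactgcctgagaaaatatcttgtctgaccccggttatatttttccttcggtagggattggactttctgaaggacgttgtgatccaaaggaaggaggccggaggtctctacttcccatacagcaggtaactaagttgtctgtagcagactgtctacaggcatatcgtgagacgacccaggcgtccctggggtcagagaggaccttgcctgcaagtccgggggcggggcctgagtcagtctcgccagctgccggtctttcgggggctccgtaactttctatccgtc
HSPA5: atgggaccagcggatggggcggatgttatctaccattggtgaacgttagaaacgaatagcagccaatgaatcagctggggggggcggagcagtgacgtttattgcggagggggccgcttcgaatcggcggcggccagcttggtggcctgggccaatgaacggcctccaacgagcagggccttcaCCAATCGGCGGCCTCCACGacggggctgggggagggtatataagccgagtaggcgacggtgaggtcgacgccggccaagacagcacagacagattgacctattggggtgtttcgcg

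Other genes linked to the response were followed through fixed lists, which were chosen with earlier results of these data known. Their counts describe the listed genes and are no independent test. The PERK and ATF4 branch, 10 genes all measured, separated the LOC400043 siRNAs: 8 rose and none fell with siRNA 2, where 7.9% of all genes rose and 13.8% fell, and 1 rose and 2 fell with siRNA 1, where 4.05% rose and 7.46% fell. The list's median log2 fold change was 0.48 with siRNA 2 and -0.10 with siRNA 1, beside 0.01 and 0.03 over all genes. The list is named after the branch, but PERK activity and phosphorylation of eIF2 alpha are not seen in array values. With siRNA 2 the PERK gene EIF2AK3 (0.14) and HSPA5 (0.18) were not called. What raised the list was not tested. DDIT3, which encodes the stress factor CHOP, read 9.02 and 9.36 with LOC400043 siRNA 2 and 7.40 and 7.44 with LOC400043 siRNA 1, against 7.58 and 7.84 with scramble. The siRNA 2 arrays were far above the rest, at a log2 fold change of 1.48 (SE 0.13, adjusted p = 0.00104 by limma). PPP1R15A, the stress-induced eIF2 alpha phosphatase subunit GADD34, rose by 0.94 (adjusted p = 0.000884 by limma). The transcription factor gene ATF3 rose by 0.93 (adjusted p = 0.000747) with siRNA 2 and fell by 0.46 (adjusted p = 0.0113) with siRNA 1. EIF2S1, which encodes eIF2 alpha, rose with both, by 0.47 and 0.39. Between the LOC400043 siRNAs 8 of the 10 genes were lower with siRNA 1, where 7.5% of all genes were, with DDIT3 at -1.77 and ATF3 at -1.38 (siRNA 1 minus siRNA 2). These 8 became 4 without either siRNA 1 array or without siRNA 2 replicate 2, and 5 without siRNA 2 replicate 1. Against scramble, the 8 calls of siRNA 2 became 4 without LOC400043 siRNA 2 replicate 2, and the 3 calls of siRNA 1 became 0 without either siRNA 1 array.

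With LINC00324 siRNA 1 this list held no call by limma, where 0.498% of all genes were called. At an unadjusted p under 0.05 there were 4 of 10, where 2435 of all 18480 genes passed. LINC00324 siRNA 2 had 1 higher and 1 lower, where 1.85% of all genes were called. With an intensity trend each siRNA had 4 calls, 3 higher and 1 lower, and after a second quantile normalisation siRNA 1 had 1, lower. CHAC1, a glutathione-degrading enzyme downstream of ATF4, rose with LINC00324 siRNA 2 by 0.80 (adjusted p = 0.0388 by limma), and PPP1R15B, the constitutive eIF2 alpha phosphatase subunit, fell by 0.70 (adjusted p = 0.022). Both calls were lost without either scramble or either siRNA 2 array.

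**Figure D5:**
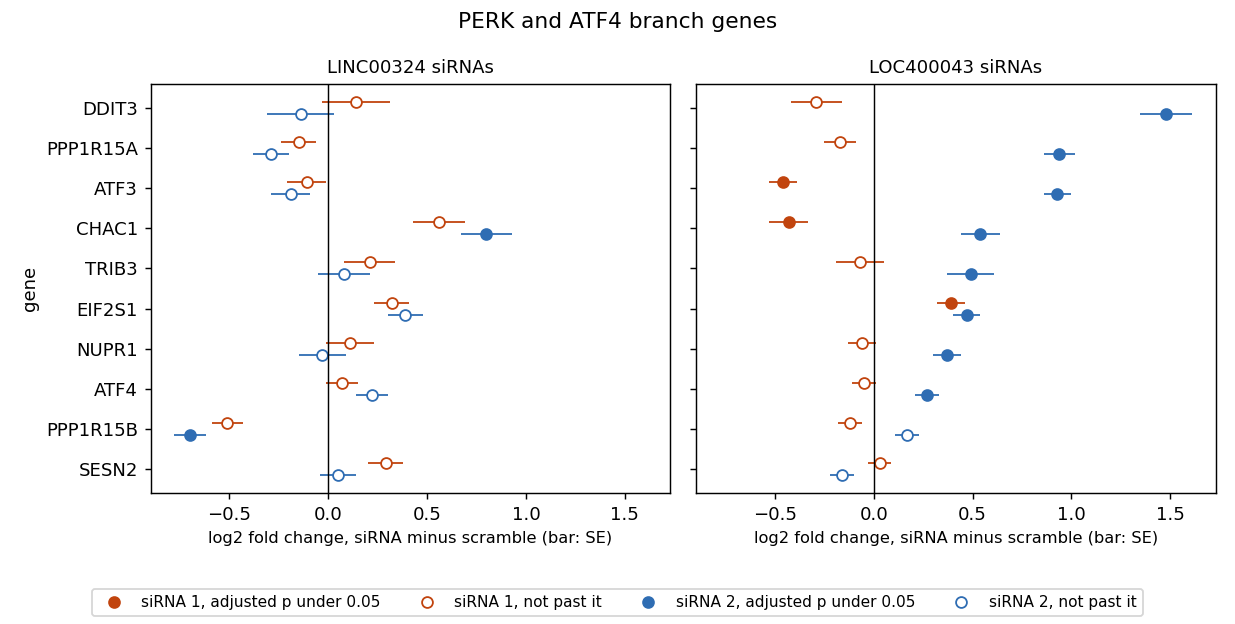
Log2 fold change against scramble of the 10 genes of the PERK and ATF4 branch with each of the 4 siRNAs (points, filled where called; bars are the SE), 2 arrays per group. With LOC400043 siRNA 2, 8 of the 10 genes were called higher, DDIT3 the most at 1.48.

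The other lists are read against the shares of all genes, which were 4.05% higher and 7.46% lower with LOC400043 siRNA 1, and 7.9% higher and 13.8% lower with LOC400043 siRNA 2. With LINC00324 siRNA 1 and siRNA 2 they were 0.498% and 1.85% in both directions together. At an unadjusted p under 0.05 by limma, 2435 and 2936 of all 18480 genes passed with the LINC00324 siRNAs. With LOC400043 siRNA 1 and siRNA 2, 5002 and 6240 did. Among 8 measured genes of ATF6 processing and the CREB3 family only CREB3L2, an ER-membrane transcription factor gene, was called, falling by 0.68 with LINC00324 siRNA 2, 0.78 with LOC400043 siRNA 1 and 0.47 with LOC400043 siRNA 2 (adjusted p = 0.0205, 0.00224 and 0.00372 by limma). Of 20 measured genes of signal peptide insertion and cleavage, none was called with LINC00324 siRNA 1 (limma, 3 at an unadjusted p under 0.05) and 1 rose with LINC00324 siRNA 2. LOC400043 siRNA 1 raised 2 of them, and LOC400043 siRNA 2 raised 3 and lowered 1, which differ from the shares of all genes by 1 or 2 genes. At an unadjusted p under 0.05 by limma, 10 and 7 of the 20 passed with these 2 siRNAs. SRPRA, the signal recognition particle receptor subunit alpha, rose by 0.50 with LINC00324 siRNA 2 and by 0.51 with LOC400043 siRNA 2. SEC11C, a catalytic subunit of the signal peptidase, rose by 0.56 and 0.43 with LOC400043 siRNA 1 and siRNA 2, and SEC61A2, the second channel gene, rose by 0.39 with siRNA 1 and fell by 0.37 with siRNA 2.

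Of 18 measured genes of N-glycosylation and the calnexin cycle, LINC00324 siRNA 1 changed none (limma, 1 at an unadjusted p under 0.05), LINC00324 siRNA 2 lowered 1, LOC400043 siRNA 1 raised 2 and lowered 1, and LOC400043 siRNA 2 raised 2 and lowered 5. Apart from the 5 falls, these counts are close to those that the shares of all genes (4.05% and 7.46%, then 7.9% and 13.8%) would give. The falls with LOC400043 siRNA 2 included the glucosidase gene MOGS (-0.41) and UGGT1 (-0.39), the folding sensor that glucosylates misfolded glycoproteins again. STT3A, a catalytic subunit of the oligosaccharyltransferase, fell with LINC00324 siRNA 2 (-0.45, adjusted p = 0.0423 by limma). Of 24 further oxidative and lumenal folding genes, none was called with the LINC00324 siRNAs (limma, 4 and 3 at an unadjusted p under 0.05), 3 rose and 3 fell with LOC400043 siRNA 1, and 3 rose and 4 fell with siRNA 2, the counts of siRNA 2 being near the 7.9% and 13.8% of all genes. Among 22 ERAD ligase and extraction genes, none was called with the LINC00324 siRNAs (limma, 2 and 1 at an unadjusted p under 0.05). LOC400043 siRNA 1 lowered 1, RNF185, by 0.35, a share below the 7.46% of all genes. At an unadjusted p under 0.05 by limma, however, 12 of the 22 passed with this siRNA, where 5002 of all 18480 genes did. The list's median log2 fold change was -0.08, beside 0.03 over all genes. With LOC400043 siRNA 2, 10 of the 22 passed, where 6240 of all genes did. LOC400043 siRNA 2 raised 5 and lowered 2, where 7.9% and 13.8% of all genes were called, with the ubiquitin ligase gene RNF139 at 0.44 and SELENOS, which links p97 to the ER membrane, at 0.41.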

How the data were processed

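Total RNA of 10 HEK-293 cultures was hybridised to HuGene-1_0-st arrays. Per the submitters' processing notes and the labels, the authors deposited log2 values made with RMA (background correction, quantile normalisation and probe summary) in one table per long noncoding RNA, and limma p-values, unadjusted, for the mean of both siRNAs against scramble. No source used here names tool versions, the genome build or the annotation release. Symbols were brought up to date by accession with RefSeq names.

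The tables were fitted one at a time (R 4.3.3, limma 3.58.1, lmFit and eBayes, two-sided; 3 groups, 3 residual degrees of freedom), with Benjamini-Hochberg adjustment over 18480 genes. Also tried were a block for the replicate number, a filter on means under 5, an intensity trend, a second quantile normalisation, median centring and leaving out each array. The LINC00324 and LOC400043 siRNAs were not set against each other, because the deposited 10-array table holds 2 normalisations side by side, with scramble differing by a median of 0.12 (log2) between them. In simulation the LINC00324 siRNA 1 contrast recovered 43.0% of genes changed by 0.5 (log2) and the LOC400043 siRNA 1 contrast 81.8%. The simulation used independent normal noise at limma's moderated variances and changed a small set of genes with siRNA 1 alone. The data differ from this, so these shares are not the power of the real contrasts. Only 2 arrays per group limit the precision.

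The genes and lists were chosen with earlier results of these data known. Genes called in any contrast could be named, arrays were printed for the 4 smallest p-values per siRNA contrast and for HSPA5, XBP1, ATF6, ERN1 and EIF2AK3, and up to 4 called genes of each other list could be named. The arrays of DNAJB9, DERL3 and DDIT3, and genes named without a call, were added after their values were seen.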

Additional observations from a re-analysis of the deposited data

Results flagged for a closer look

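The results below are differences between the 2 siRNAs of one target (siRNA 1 minus siRNA 2, log2) that passed limma's test adjusted over all genes. Groups of 2 arrays are too small for a check of single outlying arrays.

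For LOC400043, HERPUD1 (-1.02), DNAJB9 (-1.02) and RCN2 (-0.97) were lower with siRNA 1 by the widest margins. ATF6 (-0.53), FKBP7 (-0.46), FKBP10 (-0.46), XBP1 (-0.39), DERL1 (-0.36), HSPA5 (-0.35) and CANX (-0.29) were also lower with siRNA 1. DERL3 (0.76), EDEM1 (0.40), CRELD2 (0.33) and P4HB (0.29) were higher with siRNA 1. Of these 14, HERPUD1 and RCN2 were called against scramble in opposite directions.

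For LINC00324, FKBP14 (1.12), FKBP10 (0.74), EDEM3 (0.56), OS9 (0.51) and PDIA4 (0.49) were higher with siRNA 1, while EDEM1 (-0.59) and SEC61A1 (-0.42) were lower. The cause of these differences was not tested.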

How the results depend on the processing

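No call named in the text changed direction under the settings run. The median over the 40 genes crossed 0 for LOC400043 siRNA 2 (-0.01, against 0.06 with arrays centred on their medians) and for LINC00324 siRNA 1 (-0.02, against 0.03 without its replicate 1). The 2 genes called with LINC00324 siRNA 1 became 1 with a replicate block, 9 with an intensity trend and 4 after a second quantile normalisation. The 5 of LINC00324 siRNA 2 became 12 with the trend and 10 after the second normalisation, the 13 of LOC400043 siRNA 1 became 22 with the trend, and the 7 that differed between the LINC00324 siRNAs became 13 with the trend. The cause was not tested. With single arrays left out, the lone array being assumed to vary like the other groups, the counts ran from 0 to 1 (LINC00324 siRNA 1), 0 to 8 (LINC00324 siRNA 2), 2 to 15 (LOC400043 siRNA 1), 6 to 15 (LOC400043 siRNA 2), 0 to 4 (between the LINC00324 siRNAs) and 5 to 16 (between the LOC400043 siRNAs). At an unadjusted p under 0.05, LINC00324 siRNA 1 then had 8 to 10 genes, LINC00324 siRNA 2 had 11 to 16, and the LINC00324 siRNAs differed in 9 to 18 (limma). The counts of LINC00324 siRNA 2 were 0 without either scramble or either siRNA 2 array, and 8 without either siRNA 1 array. Those of LOC400043 siRNA 1 were 3 and 2 without its replicate 1 and 2 and 7 without scramble replicate 2, and those of LOC400043 siRNA 2 were 7 and 6 without its replicate 1 and 2.

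The labels do not say whether replicate numbers pair the samples, and the main fit used no pairing. Deviations of same-numbered arrays had r = 0.60 across genes for scramble with LINC00324 siRNA 1. In that table r was -0.18 for scramble with siRNA 2 and -0.38 for siRNA 1 with siRNA 2. In the LOC400043 table the same pairs of groups had 0.23, 0.37 and 0.09, so some sharing by replicate number is not settled. With the replicate block the other counts were 5 (LINC00324 siRNA 2), 14 and 17 (LOC400043 siRNA 1 and siRNA 2), 5 between the LINC00324 siRNAs and 16 between the LOC400043 siRNAs. The 10-array value table as an alternative and the contrast of LINC00324 siRNAs with LOC400043 siRNAs were not run.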
